A study of Mus musculus with 2 samples.

Results

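The 10 genes described here lie at 5 imprinted loci of the mouse and were looked up in a deposited table of genes nearest to differentially methylated regions (DMRs) in Ngn3-reporter cells of the E14.5 pancreas. The 10 genes were Peg10 and Sgce, Mest and Copg2, Peg3 with Usp29 and the antisense RNA Apeg3 (current symbol Peg3os), Nap1l5 and Herc3, and Magel2. They were looked up by name, in a list drawn up with earlier results of this table known, and they are 10 of 49997 genes in the RefSeq annotation of GRCm38.p6. All 10 matched an annotated gene. The table comes from whole-genome bisulfite sequencing of 2 libraries, 1 per genotype, each at about 400000000 reads per the labels. One library was from Ngn3eGFP/+ cells, heterozygous for an eGFP reporter at the Ngn3 locus and called islet progenitors in the labels. The other was from Ngn3eGFP/eGFP cells, with the reporter on both alleles, called null endocrine progenitors. Both were primary cells sorted for eGFP from pancreata of a mixed background, over 95% ICR with small parts of C57Bl/6 and 129svev, and neither was treated. Ngn3 (current symbol Neurog3) encodes the transcription factor from which the endocrine lineage of the pancreas begins. The sources used here give neither the sex nor the number of embryos per library.

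The table is a list of names. It has a list of genes nearest to regions with lower methylation in null cells (the lower list, 429 names) and a list for higher methylation (the higher list, 3230 names). It gives no methylation level, position, coverage or number of regions, and each name stands once per list. With a single library per genotype, no difference could be checked against replicates, and no test between genotypes was possible. The names cannot serve to check the sorted cell type, because they say nothing of expression. Neurog3 itself was in neither list. Loss of Neurog3 and a change in which cells, or which stages, carried eGFP cannot be told apart here.

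Genomic imprinting is the expression of a gene from the allele of only 1 parent. It is set by DNA methylation laid down in the egg or sperm at a control region, and kept on that allele through the divisions of the embryo while the other allele stays unmethylated. The promoter regions of Peg10, Mest, Peg3 and Nap1l5 are known as imprints of this kind with methylation from the mother, so that the unmethylated paternal allele is transcribed. Magel2 is also transcribed from the paternal allele, under a control region at Snrpn farther along the chromosome. Copg2 and Herc3 are the genes that overlap Mest and Nap1l5. Bisulfite reads that are not assigned to an allele give the mean over both parents' copies, and the table assigns none.

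The RefSeq windows from 250 bases before to 50 bases after an annotated start show what the reference sequence holds at these genes (GRCm38.p6). The windows below are printed because they stand at a gene in both lists (Mest), at genes in the higher list (Nap1l5 and Usp29), at a gene in the lower list (Magel2) and at a gene in neither (Copg2). Capitals mark CpG, the dinucleotide at which mammalian DNA is methylated, and each is read 5′ to 3′ on the strand of its gene.
Mest, second annotated start, chr6:30737800-30738099, plus strand: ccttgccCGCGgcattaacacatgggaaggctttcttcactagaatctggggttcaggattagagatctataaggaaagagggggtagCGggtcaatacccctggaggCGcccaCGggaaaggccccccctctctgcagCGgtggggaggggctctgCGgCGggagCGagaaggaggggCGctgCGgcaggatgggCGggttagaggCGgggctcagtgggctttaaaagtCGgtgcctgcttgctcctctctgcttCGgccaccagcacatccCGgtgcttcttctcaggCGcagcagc
Nap1l5, chr6:58907077-58907376, minus strand: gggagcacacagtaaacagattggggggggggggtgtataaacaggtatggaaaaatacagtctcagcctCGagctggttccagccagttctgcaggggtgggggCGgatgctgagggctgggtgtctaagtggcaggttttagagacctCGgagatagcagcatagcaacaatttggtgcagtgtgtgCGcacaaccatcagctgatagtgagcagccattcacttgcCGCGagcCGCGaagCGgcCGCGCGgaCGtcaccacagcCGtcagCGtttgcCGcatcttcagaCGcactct
Usp29, chr7:6730333-6730632, plus strand: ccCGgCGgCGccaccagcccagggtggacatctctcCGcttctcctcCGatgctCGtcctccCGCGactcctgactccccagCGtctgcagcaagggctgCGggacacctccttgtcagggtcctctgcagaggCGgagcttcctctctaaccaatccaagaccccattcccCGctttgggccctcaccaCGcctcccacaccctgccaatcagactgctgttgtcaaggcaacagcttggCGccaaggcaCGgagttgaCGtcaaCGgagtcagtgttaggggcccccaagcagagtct
Magel2, chr7:62376729-62377028, plus strand: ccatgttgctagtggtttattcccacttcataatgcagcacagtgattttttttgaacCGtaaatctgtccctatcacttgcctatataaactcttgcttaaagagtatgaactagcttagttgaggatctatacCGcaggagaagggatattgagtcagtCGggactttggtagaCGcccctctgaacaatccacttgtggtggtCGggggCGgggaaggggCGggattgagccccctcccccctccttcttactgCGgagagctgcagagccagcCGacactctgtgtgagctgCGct
Copg2, chr6:30896745-30897044, minus strand: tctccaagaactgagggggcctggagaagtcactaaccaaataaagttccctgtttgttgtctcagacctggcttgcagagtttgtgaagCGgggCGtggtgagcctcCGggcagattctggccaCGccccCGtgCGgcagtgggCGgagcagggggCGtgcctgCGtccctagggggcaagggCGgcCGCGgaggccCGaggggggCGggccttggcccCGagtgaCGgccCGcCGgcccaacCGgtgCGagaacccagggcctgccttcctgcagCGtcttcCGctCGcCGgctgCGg

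The table named 8 of the 10 genes. In the lower list alone were Peg10, Apeg3 and Magel2. In the higher list alone were Sgce, Usp29, Nap1l5 and Herc3. Mest was in both lists, and Copg2 and Peg3 were in neither. The lower list therefore held 4 of the 10 (40%), the higher list 5 (50%) and any list 8 (80%). Of all annotated genes, the lower list named 0.812%, the higher list 6.29%, both lists 0.26% and any list 6.84%. Over protein-coding genes alone, the shares were 1.51%, 12.1%, 0.503% and 13.1% in the same order. The genes of a locus share their neighbourhood, so the 10 are not independent of each other.

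**Figure D1:**
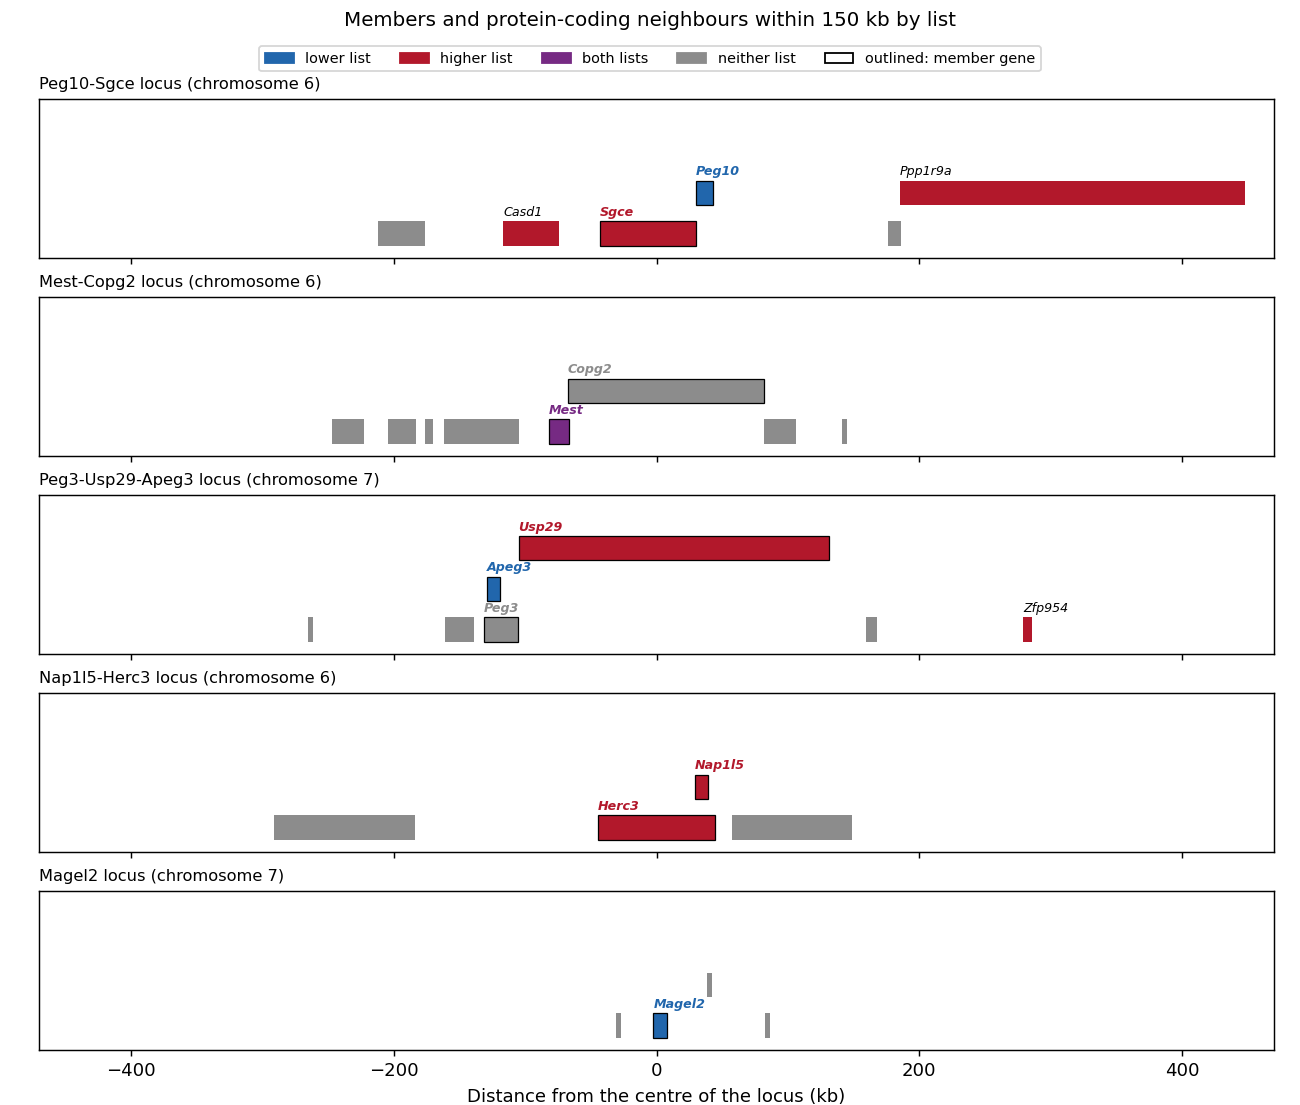
Maps of the 5 loci, with distance in kb from the centre of each locus on the x axis and rows used only to separate genes. Bars are annotated genes coloured by list, black outlines mark the 10 genes (drawn at least 10 kb wide) and other bars are protein-coding genes within 150 kb (at least 4 kb wide); Peg10 in the lower list stands directly beside Sgce in the higher list, and no neighbour drawn is in the lower list.

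Peg10 and Sgce stood in opposite lists. Peg10 (chromosome 6, 4747306 to 4760517) encodes a Gag- and Pol-like protein derived from a retrotransposon, known to be needed for the placenta in mice. Sgce (chromosome 6, 4674350 to 4747204) encodes epsilon-sarcoglycan, a membrane glycoprotein. Both are transcribed away from each other from a common promoter region, and only 101 bases separate their annotated spans. Each was in 1 list only, Peg10 in the lower and Sgce in the higher, so at least 1 region of each kind was assigned to this locus. Which of them lay nearer to the shared promoter cannot be read from names.

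Close pairs of genes in opposite lists were also counted. Of protein-coding genes, the lower list named 331 and the higher list 2645, so a small share of opposite pairs says nothing of closeness by itself. Whether opposite lists are rarer among close genes than among distant ones was not tested. Over the genome, 4726 pairs of protein-coding genes overlapped or lay within 1000 bases of each other, and in 127 of them both genes were named. Of these 127, 112 had both genes in the same single list, 9 included a gene in both lists, and 6 (4.72%) had 1 gene in the lower list alone and the other in the higher list alone. Peg10 and Sgce were 1 of the 6. The other 5 pairs, with the gene of the lower list first, were 1700071K01Rik and Asic2, Clec12b and Clec9a, Iqck and Gprc5b, Gm7244 and Prdm10, and Herc1 and Fbxl22. In 4 of those 5 the genes overlap, and Gm7244 and Prdm10 lie 688 bases apart. Pairs over all gene classes gave 11 in opposite lists, of 319 with both genes named (3.45%). Pairs within 10 kb gave 13, a count given here without its share.

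Of 6 protein-coding genes within 500 kb, 3 (50%, exact Clopper-Pearson 95% interval 11.8 to 88.2%, counting error only) were in the higher list and none in the lower. The share over all protein-coding genes in the higher list, 12.1%, lies within this interval. Casd1, a sialic acid O-acetyltransferase gene, lies 31.0 kb away on the Sgce side. Ppp1r9a, which encodes the actin-binding protein neurabin and is expressed mainly from the maternal allele in the placenta, lies 142 kb away on the Peg10 side and spans 263 kb. Pon1, a paraoxonase gene, lies 408 kb away on that side. Its neighbour Pon3, 456 kb away, and Col1a2, a fibrillar collagen gene 133 kb away on the Sgce side, were in neither list.

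Mest was named for both directions. Mest (chromosome 6, 30733506 to 30748466), also known as Peg1, encodes a protein of the alpha/beta hydrolase fold. It was 1 of 130 genes in both lists, which is 0.26% of annotated genes. A gene in both lists was nearest to at least 1 region of each kind. Copg2 (chromosome 6, 30747554 to 30896815), which encodes the gamma-2 subunit of the coatomer of Golgi transport vesicles, runs on the opposite strand and overlaps the end of Mest by 913 bases. It was in neither list.

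A microRNA inside Mest was named as well. Mir335 (chromosome 6, 30741299 to 30741396) lies 7.79 kb from the first base of Mest, within the gene and on the same strand, and was in the higher list. Its arms are printed to identify the gene, with the seed (bases 2 to 8) in capitals, and they do not share a seed.
mmu-miR-335-5p: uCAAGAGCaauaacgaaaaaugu
mmu-miR-335-3p: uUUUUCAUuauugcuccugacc
Mest and Mir335 overlap, so the 2 names may stand for 1 region or for several. The annotated starts of Mest lie at 30733506 and, 4.54 and 4.55 kb along, at 30738050 and 30738053. The table does not say to which start any region was near.

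None of the nearest protein-coding genes on either side of Mest and Copg2 was named. Cep41 at 23.0 kb, a centrosomal protein gene, Tsga13 at 0.166 kb from the start of Copg2, and Klf14 at 59.2 kb, a maternally expressed transcription factor gene, were in neither list. Of all protein-coding genes only 13.1% were in any list, so a few unnamed genes do not set this locus apart.

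At the Peg3 locus the sense gene was absent and its partners were named. Peg3 (chromosome 7, 6703892 to 6730462) encodes a large zinc finger protein, and it was in neither list. Apeg3 (chromosome 7, 6706760 to 6707624), a noncoding antisense RNA of 865 bases that lies wholly within Peg3, was in the lower list. Usp29 (chromosome 7, 6730559 to 6967220), a ubiquitin-specific protease gene that spans 237 kb, was in the higher list. Apeg3 and Usp29 lie 22934 bases apart. A region nearest to Apeg3 lies within or close to the Peg3 span, so the absence of the name Peg3 does not show that methylation there did not differ.

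Peg3 and Usp29 share 1 promoter region in opposite directions. Their spans are separated by 96 bases, and their RefSeq windows overlap by 263 of 300 bases, so the Usp29 window printed above holds most of the Peg3 window on the other strand. The first bases that define the windows lie 164 bases apart, at 6730419 for Peg3 and 6730583 for Usp29. A region in this stretch could be assigned to either gene. Mir3099, a microRNA gene within Usp29 (chromosome 7, 6803587 to 6803670), was also in the higher list. Of 27 protein-coding genes within 500 kb, only Zfp954, a zinc finger gene 147 kb away, was in the higher list, and 0 were in the lower list. Zim1, an imprinted zinc finger gene 7.35 kb from Peg3, and Aurkc, a meiotic kinase gene 28.1 kb from Usp29, were in neither.

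Nap1l5 and Herc3 were both in the higher list. Nap1l5 (chromosome 6, 58905233 to 58907126) encodes a protein of the nucleosome assembly family and is 1894 bases long. It lies wholly within Herc3 (chromosome 6, 58831455 to 58920398) on the opposite strand. Herc3 encodes a HECT-type ubiquitin ligase. Since 1 gene is inside the other, both names may come from the same region or from different ones. None of the 6 protein-coding genes within 500 kb was named, Fam13a at 13.1 kb and the transporter gene Abcg2 at 139 kb among them.

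Magel2 was named in the lower list alone. Magel2 (chromosome 7, 62376979 to 62381640) encodes a MAGE-family protein that works with ubiquitin ligases and lies in the region that corresponds to the human Prader-Willi locus. The 4 protein-coding genes within 500 kb were in neither list. Of these, Ndn at 27.1 kb, which encodes the related MAGE protein necdin, Mkrn3 at 36 kb and Peg12 at 80.2 kb are paternally expressed genes of the same domain. Snrpn, which holds the control region of the domain, was in neither list as well.

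The neighbours over all 5 loci were set beside all protein-coding genes. Of 55 protein-coding genes within 500 kb, 5 (9.09%) were in the higher list and none in the lower, where the shares of all protein-coding genes were 12.1% and 1.51%. Within 250 kb, the higher list held 4 of 32 (12.5%) and the lower list 0. Within 1000 kb these counts were 7 of 90 (7.78%) and 0. Over all gene classes within 500 kb, 7 of 130 (5.38%) were in the higher list, beside 6.29% of all annotated genes. This count includes Mir335 and Mir3099, which lie within Mest and Usp29 and may be named for the same regions as those genes. Many of the 27 neighbours at the Peg3 locus are olfactory, vomeronasal and zinc finger genes.

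**Figure D2:**
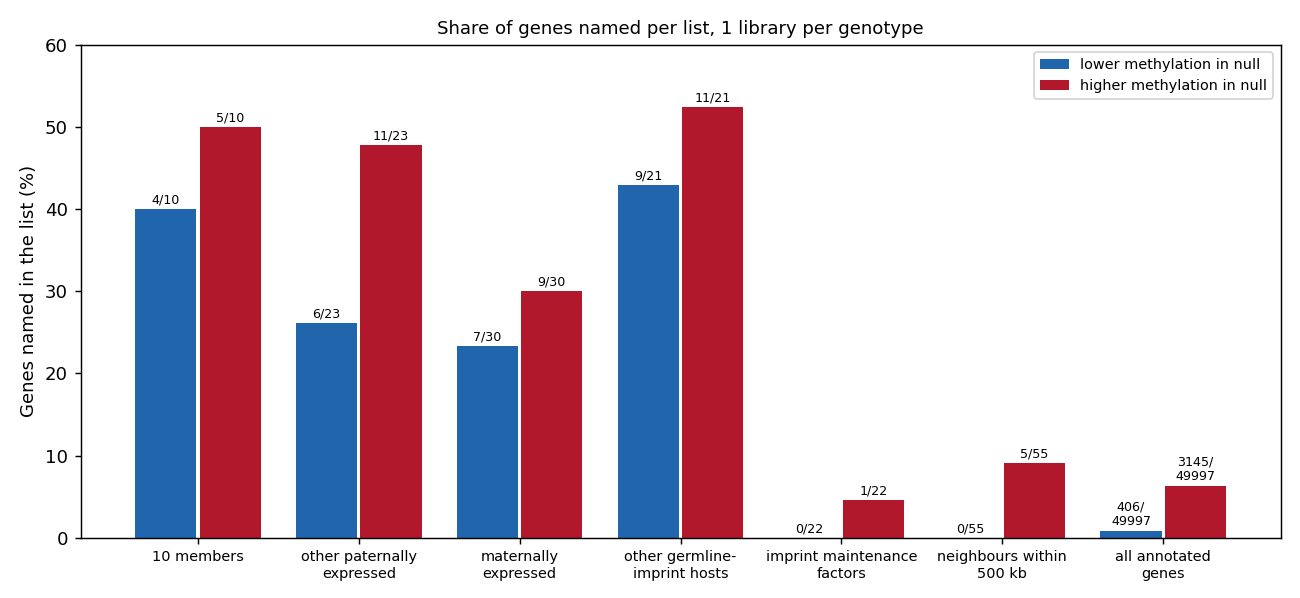
Percent of genes named in the lower (blue) and higher (red) list, on the y axis, for the 10 genes, 4 further gene lists, the neighbours and all annotated genes, with counts above the bars and no error bars since there is 1 library per genotype. The 10 genes stand at 40 and 50%, the neighbours at 0 and 9.09% and all genes at 0.812 and 6.29%. The neighbours are protein-coding genes only, for which the like shares, not drawn, are 1.51 and 12.1% of all protein-coding genes.

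Other imprinted genes were also named in both directions. Of all annotated genes, the lower list named 0.812%, the higher list 6.29% and both lists 0.26%. Over protein-coding genes these shares were 1.51%, 12.1% and 0.503%. Among 23 paternally expressed genes outside the 10, the lower list held 6 (26.1%) and the higher list 11 (47.8%), with 5 in both. The 5 were Dlk1, which encodes a Notch-like membrane protein, the noncoding RNAs Airn and Peg13, the amino acid transporter gene Slc38a4, and Nespas (current symbol Gnasas1). Kcnq1ot1, a noncoding RNA, was in the lower list alone. Igf2, the growth factor gene, and Nnat, Zdbf2, Mcts2, Rasgrf1 and Sfmbt2 were in the higher list alone. Among 30 maternally expressed genes, the lower list held 7 (23.3%) and the higher list 9 (30.0%), with 4 in both (Kcnq1, Gnas, Grb10 and Trappc9). H19, Meg3 and Slc22a18 were in the lower list alone, and Cdkn1c, a cell cycle inhibitor gene, Igf2r, Slc22a2, Ppp1r9a and H13 in the higher list alone. Some paternally expressed genes lie within maternally expressed ones (Kcnq1ot1 in Kcnq1, Peg13 in Trappc9, Mcts2 in H13). Their names may stand for the same regions, so the counts are not independent.

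A further list held 21 genes other than the 10 at which a germline imprint lies, most of which also belong to the lists just given. Of these, 9 (42.9%) were in the lower list, 11 (52.4%) in the higher list and 6 in both. Gnas overlaps Nespas and Airn overlaps Igf2r, so genes of this list are not all independent of each other. The shares of all annotated genes were 0.812%, 6.29% and 0.26%. Plagl1, Inpp5f and Zrsr1 were among the 7 in neither. Of 22 factors known to set, read or keep methylation at imprints, only Smchd1, an X inactivation and imprinting factor, was named, in the higher list (4.55%). That list named 12.1% of protein-coding genes and 6.29% of all annotated genes. Zfp57 and Trim28, which hold methylation at imprints, and Dnmt1 and Uhrf1, which copy methylation at replication, were in neither.

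Relatives of the 10 by protein family were named in small numbers, to be read against the 12.1% of all protein-coding genes in the higher list and the 1.51% in the lower list. Of 13 matched genes with retrotransposon Gag-like or related proteins, as Peg10 has, Rtl6, Pnma1 and Pnma2 (23.1%) were in the higher list. Of 5 sarcoglycan genes other than Sgce, Sgca was in the higher list and Sgcz in both (higher 40%, lower 20%). Of 4 HERC genes other than Herc3, Herc1 and Herc2 (50%) were in the lower list and Herc6 (25%) in the higher list. Of 49 ubiquitin-specific protease genes other than Usp29, Usp12, Usp35, Usp44, Usp46 and Usp48 (10.2%) were in the higher list and Usp38 (2.04%) in the lower list. Of 21 MAGE genes other than Magel2, the X-linked Magea4 (4.76%) was in the higher list. Of 8 coatomer genes Copz1 (12.5%) was in the higher list, and none of 10 genes of the nucleosome assembly family and its relatives was named.

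Long genes are named more often than short ones, which bears on the longer of the 10. Of protein-coding genes in the longest decile, the higher list named 38.5% and the lower list 4.89%. Usp29 and Copg2 (149 kb) belong to this decile, Usp29 named and Copg2 not. Of the relatives in the lower list, Herc1, Herc2 and Sgcz each span over 109 kb, where this decile begins, and Usp38 does not. Sgce (72.9 kb) and Herc3 (88.9 kb) belong to the ninth decile, in which 21.0% were in the higher list. Nap1l5 belongs to the second decile, in which 5.89% were in the higher list. Of the genes in the lower list, Magel2 (4.66 kb) belongs to the third decile, where 0.503% were in that list, and Peg10 (13.2 kb) and Mest (15.0 kb) to the fifth, where 1.19% were. Peg3 (26.6 kb), in neither list, belongs to the seventh.

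**Figure D3:**
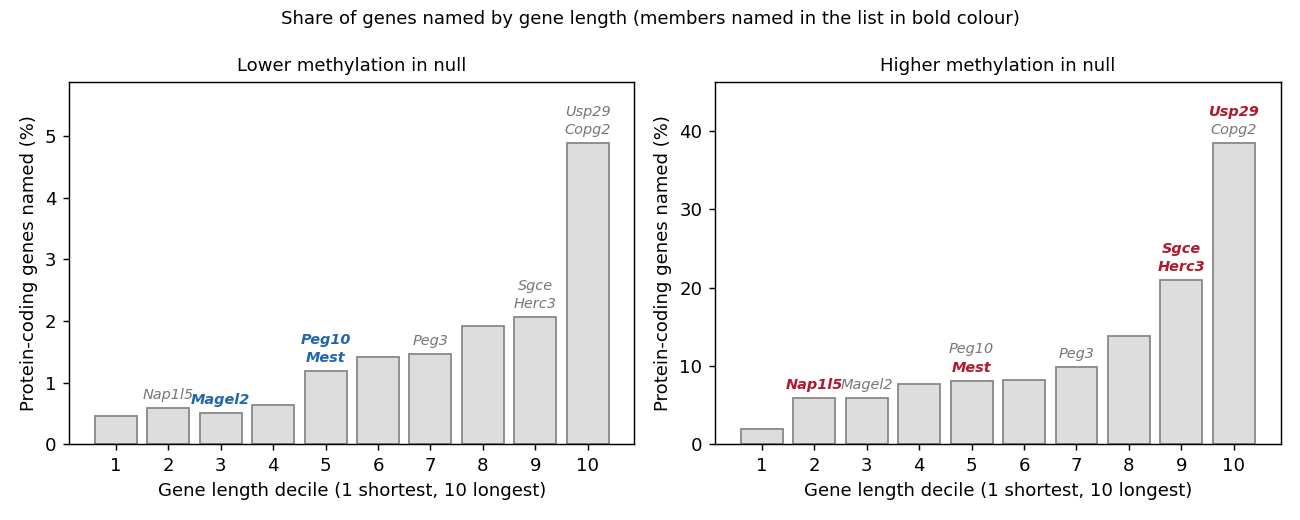
Percent of protein-coding genes named in the lower list (left) and the higher list (right), on the y axes, by decile of gene length on the x axes; grey bars are all protein-coding genes of a decile and the names stand over the decile of each of the 9 protein-coding genes, in bold colour where that gene was named. Magel2, Peg10 and Mest are named in the lower list from deciles in which at most 1.19% are.

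The promoter windows differed in CpG content. The second Mest window, Nap1l5 and Usp29 held 17 CpG each, Peg3 13 and Magel2 10, against a median of 7 over all 32851 RefSeq windows and 13 over those of protein-coding genes. The Copg2 window held 25, the highest number here. The window at the first Mest start held 8 and that of Herc3 held 4. The Herc3 window (58833450 to 58833749) lies inside the Herc3 span, which begins at 58831455, so it does not cover the first base of the gene. The ratio of observed to expected CpG was 0.590 at the second Mest start and 0.327 at the first. It was 0.701 for Nap1l5, 0.264 for Herc3 within whose span Nap1l5 lies, 0.584 for Usp29, 0.463 for Peg3, 0.513 for Magel2 and 0.707 for Copg2. Of the genes in neither list, Peg3 lay within the range of the listed genes and Copg2 above it. The Peg3 window shares 263 of 300 bases with that of Usp29, which is in the higher list. The windows of Peg3 and Usp29 are therefore largely the same sequence, and no comparison of listed with unlisted genes can rest on them.

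**Figure D4:**
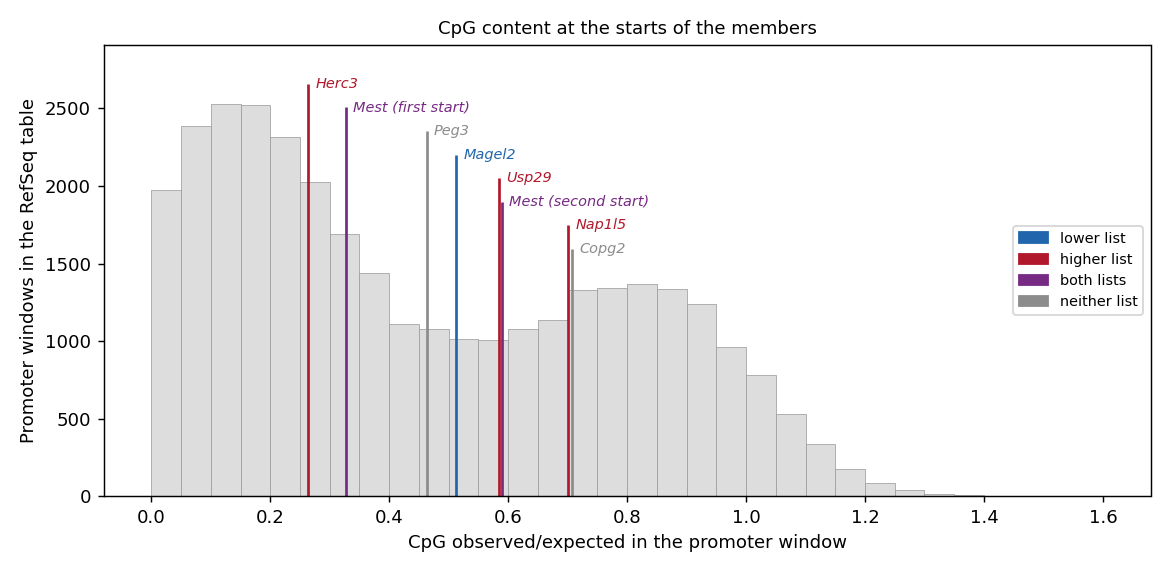
Histogram of the observed to expected CpG ratio (x axis) over all RefSeq promoter windows (y axis, number of windows), with vertical lines at the windows of 7 of the 10 genes, coloured by list; line heights only separate the labels. The lines run from 0.264 for Herc3, whose window lies inside its span, to 0.707 for Copg2. Peg3 and Copg2, in neither list, lie on both sides of Magel2 and Usp29, and the Peg3 and Usp29 windows share 263 of 300 bases.

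Short motifs of imprint-binding factors were searched on both strands of the windows. TGCCGC, the motif that the zinc finger protein ZFP57 binds when methylated, occurred 2 times in the second Mest window, 2 times in the Nap1l5 window and 1 time in the Copg2 window. It did not occur in the windows of Usp29, Peg3, Magel2, Herc3 or the first Mest start. Of all windows, 11.6% held it, and of those of protein-coding genes 14.1%. GCCATNTT, a core of the site of YY1, a zinc finger factor with known sites within Peg3, occurred in none of these windows, against 6.05% of all windows. The motifs share no matched base here, since GCCATNTT had no match. A match is a description of the reference sequence, and no match says only that these letters are not in the window.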

How the data were processed

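Per the labels' protocols, eGFP-positive cells (over 95% viable) were sorted and lysed, Tn5 tagmentation of 75 ng of DNA was followed by bisulfite conversion and 12 PCR cycles, and paired 150 bp reads were sequenced. The submitters' processing notes name Trim Galore and the builds mm10 and GRCm38. For the aligner, region caller, thresholds, coverage minimum and nearest-gene rule: not given in the sources used here. PCR duplicates, incomplete conversion and C-to-T polymorphisms of the mixed strain can all change a methylation call. The authors deposited 1 table of gene names over 9 columns, which holds no measured quantity and so has no unit. The last 7 columns have no header and were read as the higher list, whose alphabetical order they carry on. The depth behind each region is unknown.

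Ignoring case, names were matched to RefSeq symbols, gene IDs and unique older symbols (406 of 429 and 3145 of 3230). Coordinates are those of annotated genes in GRCm38.p6, 1-based. Promoter and microRNA sequences are from RefSeq, GRCm38.p6, and 7 of the 10 genes had a promoter window. Neighbours are protein-coding genes within 500 kb of a locus. Expected CpG is the product of the C and G numbers over window length. Matching was tested on simulated lists. Counts were made with Python 3.11.15 and pandas 2.3.3. The genes, gene lists and settings were chosen with earlier results of these data known. The genes named are the 10, their listed neighbours and listed members of the gene lists, and other unlisted genes and the opposite pairs were named after their values were seen. Alternatives are in the closing section. The result for 1 neighbour that the rule takes is not reported here.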

Additional observations from a re-analysis of the deposited data

How the results depend on the processing

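Of 46 values under other settings, 36 kept within the limits set for them (1.5 times for a count, the exact 95% interval of the main value for a share) and 10 moved. Matching by current symbols only, which leaves out the older symbol Apeg3, changed the counts of the 10 genes within those limits. The lower list went from 4 to 3 and neither list from 2 to 3, at the limit of 1.5 times, and the higher list stayed at 5. Matching by the spellings given left these counts unchanged. Reading only the columns with a header put 0 of the 10 in the higher list and 6 in neither, by construction, since the rest of that list was left out. Protein-coding genes as the background gave shares of 1.51% (lower list) and 12.1% (higher list), and autosomal genes gave 6.61% in the higher list. With protein-coding windows as the background, 14.1% held TGCCGC and 6.37% held GCCATNTT, and the median was 13 CpG. Close pairs in opposite lists numbered 13 within 10 kb and 11 over all gene classes, both chosen after seeing the data, as wider limits take in more pairs. The share of neighbours in the higher list went from 9.09% to 12.5% (250 kb), 7.78% (1000 kb) and 5.38% (all gene classes), all within its interval of 3.02 to 20%. It stayed at 0 in the lower list, where the interval of the main setting, 0 to 6.49%, holds the 1.51% of all protein-coding genes. With current symbols only, 5 counts of the gene lists fell by 1, within 1.5 times: paternally expressed genes outside the 10 to 5 (lower list) and 10 (higher list), germline-imprint hosts to 8 and 10, and Gag-like relatives of Peg10 to 2 in the higher. No paired analysis was possible because there is 1 library per genotype, and for the same reason no replicate could be left out. Region number, coverage and size of difference limit every statement and are unknown.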

Other observations

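The spelling of names was not uniform, and the 10 genes showed it. Mest stood as mest in the lower list and as MEST in the higher list, Herc3 as herc3, Apeg3 in mixed case, and the other named genes in capitals. Of the lower list, 49 of 429 names (11.4%) were wholly in lower case and 47.3% in capitals, and of the higher list 182 of 3230 (5.63%) and 74.2%. A lookup that respects case would find Mest under neither spelling of its current symbol. Where the spellings come from was not tested.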
